A study of Homo sapiens with 4 samples.

Results

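Named antisense transcripts are RNAs whose gene symbol joins the name of another gene, the sense gene, to AS and a number, as in ZBED5-AS1. Members were taken as the genes with such a symbol that had a probe set annotated to exactly 1 gene and a mean signal over the 4 arrays of at least 78.1, the median of such means over all probe sets that are not controls. Of 781 such genes with a single-gene probe set, 244 passed and 537 did not, among 12830 genes kept of 19775 in all. Where several probe sets of a gene were kept, the brightest was read. The members were thus chosen by their mean signal over all 4 arrays, and that mean is given only as a description. A gene that is bright in 1 cell line only could pass through that line, and such genes are counted apart below. The members just inside the minimum were PPP1R14B-AS1, SOX9-AS1 and DNAAF3-AS1, and those just outside were HOXC-AS3, PYCARD-AS1 and SLC9A3-AS1, with mean signals of 77.9, 77.8 and 77.2.

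The cells were A549 and H1299, established human lines from non-small cell lung cancer, grown in DMEM with 10% fetal bovine serum. Each line was transfected by lipofection with either a scramble siRNA, the control, or an siRNA against hMOF. hMOF is the product of KAT8, the lysine acetyltransferase that acetylates histone H4 at lysine 16. Line and siRNA make 4 combinations, and each has a single array hybridised with biotinylated cRNA from 6 ug of total RNA, so there are no replicates within a combination. On 2 of the 4 arrays the labels' treatment tag contradicts the source name, from which groups were taken.

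Antisense transcripts are mostly long noncoding RNAs made from the DNA strand opposite to a protein-coding gene. Many start close to the start of the sense gene and run away from it, so that 1 stretch of open promoter chromatin serves both strands. Others start inside the sense gene or beyond its far end and overlap its RNA. Some act on the sense gene or on distant RNAs, and many are short-lived products that the nuclear exosome degrades. The strand that each probe set reads is not given in the sources used here, so a signal is assigned to the antisense gene by its annotation alone.

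In RefSeq promoter windows on GRCh38.p14, which listed 184 of the 244 members, the start of the antisense gene could be placed against that of its sense gene for 166. For 80 the starts were on opposite strands within 1000 bases, here called head to head. Of these 80, 48 antisense starts lay before the sense start and 32 at or past it. Head to head thus includes members that start within the sense gene and run back across its start. Beyond 1000 bases, 44 started inside the sense gene, 36 beyond its far end and 5 upstream, and 1 was listed on the same strand. The sequences below show the stretch that lies between the antisense and sense starts for 4 head-to-head pairs on which the results turn. The fifth is the 250 bases before the start of OIP5-AS1, the member with the brightest probe set. Each is written 5′ to 3′ on the strand of the antisense gene, ending at the base before its start. The coordinates are chr5:78360542-78360616 on the minus strand for SCAMP1-AS1, chr21:32393013-32393132 on the plus strand for URB1-AS1, chr11:10858054-10858216 on the plus strand for ZBED5-AS1, chr4:144646020-144646155 on the minus strand for HHIP-AS1 and chr15:41283740-41283989 on the plus strand for OIP5-AS1. Capitals mark matches to 7 motifs, searched on either strand with overlaps allowed. They were TATAAA for the TATA box, CCAAT for the box bound by NF-Y, and GGGCGG for the GC box bound by SP1. The other 4 were CCGGAAG for ETS factors, GCATGCG for NRF1, AAGATGG for YY1 and CACGTG for the E-box.
SCAMP1-AS1: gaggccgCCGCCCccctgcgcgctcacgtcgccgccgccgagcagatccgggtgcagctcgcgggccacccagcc
URB1-AS1: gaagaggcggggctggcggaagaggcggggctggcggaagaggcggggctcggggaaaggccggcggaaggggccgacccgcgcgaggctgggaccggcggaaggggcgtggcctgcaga
ZBED5-AS1: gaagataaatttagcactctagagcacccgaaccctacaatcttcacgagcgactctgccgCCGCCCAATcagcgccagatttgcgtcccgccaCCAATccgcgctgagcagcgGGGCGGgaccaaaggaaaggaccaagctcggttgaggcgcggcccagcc
HHIP-AS1: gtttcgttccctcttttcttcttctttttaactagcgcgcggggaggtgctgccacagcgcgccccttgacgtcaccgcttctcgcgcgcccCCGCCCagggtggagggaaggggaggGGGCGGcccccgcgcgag
OIP5-AS1: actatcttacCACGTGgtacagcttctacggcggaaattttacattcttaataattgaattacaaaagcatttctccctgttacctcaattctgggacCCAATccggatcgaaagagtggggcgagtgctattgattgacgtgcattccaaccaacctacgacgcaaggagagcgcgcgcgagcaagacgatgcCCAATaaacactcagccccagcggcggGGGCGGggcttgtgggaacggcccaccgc
The stretch between the 2 starts was 75 bases for SCAMP1-AS1 and held 12 CpG dinucleotides and 1 GC box, which 26.8% of promoter stretches of that length hold. The 120 bases at URB1-AS1 held 15 CpGs and none of the motifs searched. The 163 bases at ZBED5-AS1 held 15 CpGs, 2 CCAAT boxes and 2 GC boxes, and 25.5% and 37.7% of stretches of that length hold at least 1 of these. The 136 bases at HHIP-AS1 held 16 CpGs and 2 GC boxes, against 35.6% of stretches with at least 1 GC box. These shares are over all 27305 promoters and do not count stretches with 2 matches apart. The window before OIP5-AS1 was poorer in G and C, at 52.8%, and held 2 CCAAT boxes, 1 GC box and 1 E-box. Over the 300-base windows of the 80 head-to-head members, the median was 27.5 CpGs and 67.0% G and C, against 21 CpGs and 63.3% for all 184 members, 26 CpGs and 65.3% for the 10386 genes tested that the promoter table lists, and 14 CpGs and 58.3% for 27305 promoters. A GC box was found in 66.3% of the head-to-head windows, in 53.3% of all members' windows, in 69.0% of those of genes tested and in 44.6% of all promoters. The members thus stood below the genes tested, which passed the same signal minimum, in CpGs and GC boxes. A TATA box was found in 4.35% of the members' windows, in 5.77% of those of genes tested and in 11.95% of all promoters. These matches are descriptions of the letters and were not tested as sites.

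KAT8 checked the labels: its brighter probe set went from 402 under scramble to 106 under hMOF siRNA for A549 and from 241 to 61.8 for H1299. The remaining signal was 26.4% and 25.6% on that probe set, and 83.8% and 64.5% on a second one that is under the minimum. The KAT8 log2 ratios of -1.67 and -1.57 gave an adjusted p of 0.0288 in limma. The arrays' median signals lay between 73.3 and 75.3. The marker genes followed the lines: 4 aldo-keto reductase and aldehyde dehydrogenase genes known from A549 summed to between 47808 and 51928 in A549 and to between 164 and 177 in H1299, and CDKN2A, deleted in A549, read 33.5 and 46.5 there against 1317 and 1176 in H1299. Of the 3 leukocyte, 2 endothelial and 3 fibroblast markers, 1 of each passed the minimum. The leukocyte marker that passed, CD3E, read between 85.6 and 88.0 on the 4 arrays, and PTPRC, which did not, between 31.6 and 41.5. The endothelial marker PECAM1 read between 205 and 224, and the fibroblast marker COL1A1 read 541 and 1191 on the A549 arrays and 7.97 and 7.89 on the H1299 arrays. The part of these genes in the results below was not tested.

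Most members lay near the signal minimum. Their mean signals ran from 78.3 to 1634 with a median of 120 and an interquartile range from 94.8 to 198, while the median over all genes kept was 386. Of the 244 members, 77 were under 100, 184 under 200 and 5 at 1000 or more. Signals of different probe sets are not levels of 1 RNA against another, and are given only to show how far each stands from the minimum. The 5 members with the brightest probe sets were OIP5-AS1, FAM131B-AS2, EPB41L4A-AS1, FGD5-AS1 and ZNF232-AS1. OIP5-AS1, a conserved and abundant noncoding RNA also called Cyrano, read 2225 and 1675 on the A549 arrays and 1469 and 1169 on the H1299 arrays, with scramble first as in all pairs of values below. Both lines gave the lower value with hMOF siRNA, and both A549 arrays stood above both H1299 arrays.

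The siRNA comparison asks which of these RNAs change when hMOF is depleted. Over both lines, with limma fitted to log2(signal + 29.06) with terms for line and siRNA and adjusted over all 12830 genes, 0 of the 244 members had an adjusted p under 0.05, against 3.57% of all genes (1.16% higher and 2.41% lower). The lowest adjusted p among the members was 0.0544, for URB1-AS1. At an unadjusted p under 0.05, limma gave 47 members, 40 higher and 7 lower with hMOF siRNA, against 9.14% of all genes higher and 14.6% lower. The count of 0 depends on the processing: 6 of 12 alternative settings gave between 2 and 5 members, with URB1-AS1 among them in each.

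Without a test, more members stood above 0 than below it. The log2 ratio of hMOF siRNA over scramble was above 0 for 170 of 244 members in A549 and 148 in H1299, against 46.4% and 48.4% of all genes. It was above 0 in both lines for 114 members and below 0 in both for 40, against 31.6% and 36.7% of all genes. The median ratio was 0.07 in each line for the members, -0.02 and -0.01 for all genes, and -0.08 and -0.04 for the 188 measured sense genes. The median of the members stayed above 0 under each alternative scaling and minimum tried, although that of all genes changed sign under several of them. Dim genes shared part of this pattern: 162 members lay in the dimmest of 4 signal bins with equal numbers of genes, where 57.8% and 53.4% of all genes were above 0 and 66% and 59.3% of the members were. In the next bin, with 66 members, these shares were 45.7% and 48.1% of all genes and 77.3% and 68.2% of the members. The third bin held 10 members, with shares of 41.1% and 42.9% of all genes and 90% and 50% of the members. The brightest bin held 6, with shares of 41.1% and 49.3% of all genes and 50% and 33.3% of the members. In a setting added after seeing the data, a loess of the ratio on signal was removed within each line. The members' medians were then 0.065 in A549 and 0.068 in H1299, with 162 and 149 members above 0. Those of all genes were 0.004 and -0.002. How much of the members' shift goes with low signal was not tested further. The ratios of the lines correlated across the 244 members with Pearson's r of 0.36 and Spearman's rho of 0.45, against 0.63 and 0.56 across all genes, where genes share the same 4 arrays and are not independent.

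Past a 2-fold ratio, 2 members were higher and 0 lower in A549, against 0.717% and 1.14% of all genes. In H1299, 6 members were higher and 1 lower, against 1.22% and 2.21%. No member was past 2-fold in both lines. These 9 genes carry the largest single differences and are given one by one, with no test within a line because each arm has 1 array.

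**Figure D1:**
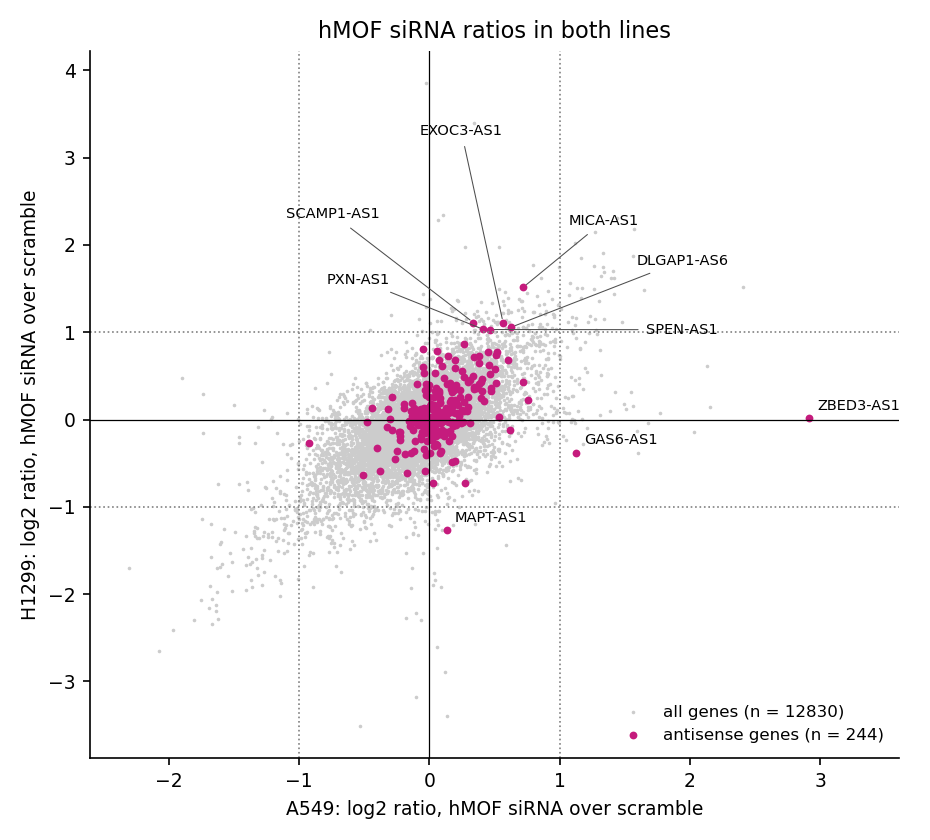
Each point is a gene, placed by its log2 ratio of hMOF siRNA over scramble, on signal plus 29.06, in A549 (x axis) and H1299 (y axis), with 1 array per arm. The 244 antisense genes are coloured and all 12830 genes are grey; dotted lines mark 2-fold, and the 9 named antisense genes are those past it in either line, with ZBED3-AS1 far to the right at 2.91 and 0.01.

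ZBED3-AS1 lies head to head with ZBED3, a zinc finger gene linked to Wnt signalling. On the A549 arrays it read 85.5 under scramble and 832 under hMOF siRNA, and on the H1299 arrays 96.5 and 97.7. One array, A549 with hMOF siRNA, stands apart and the other 3 overlap. The log2 ratios were 2.91 and 0.01, the first being the highest ratio of any of the 12830 genes in A549. The mean of 1.46 ± 0.67 (SE, limma) had an adjusted p of 0.276. The 3 other probe sets of ZBED3-AS1, all below the minimum, read 40.2 and 45.0, 20.6 and 22.6, and 7.66 and 10.4 in A549, so that their ratios were 0.10, 0.06 and 0.10. The high reading therefore rests on 1 probe set on 1 array. ZBED3 itself read 445 and 322 on the A549 arrays and 320 and 227 on the H1299 arrays.

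MICA-AS1 is named for MICA, which encodes a stress-induced ligand of the NKG2D receptor of natural killer cells. Its signal was 65.8 and 127 on the A549 arrays and 220 and 684 on the H1299 arrays, scramble first. Both lines gave the higher value with hMOF siRNA, and both H1299 arrays lay above both A549 arrays. The log2 ratios were 0.72 and 1.52, with a mean of 1.12 ± 0.21 (SE) and an adjusted p of 0.0652 in limma. MICA read 707 and 393 in A549 but 1999 and 1977 in H1299, ratios of -0.80 and -0.02. The pair thus differed in the opposite direction in A549, and in H1299 only the antisense value moved by more than 2-fold.

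DLGAP1-AS6 starts inside DLGAP1, a gene for a postsynaptic scaffold protein whose own probe sets were not assigned to a single gene. DLGAP1-AS6 read 80.3 and 140 on the A549 arrays and 271 and 596 on the H1299 arrays, ratios of 0.63 and 1.06 and an adjusted p of 0.0564 in limma. EXOC3-AS1, named for a subunit of the exocyst that tethers secretory vesicles, read 38.0 and 70.3 on the A549 arrays and 57.3 and 157 on the H1299 arrays. Its ratios were 0.57 and 1.11, with an adjusted p of 0.0671 in limma, and 3 of its 4 arrays were under the signal minimum. EXOC3 gave ratios of 0.19 and -0.02.

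SPEN-AS1 lies head to head with SPEN, a large RNA-binding transcriptional repressor. SPEN-AS1 read 172 and 249 on the A549 arrays and 124 and 285 on the H1299 arrays, and SPEN read 821 and 563, and 639 and 458. Within each line the antisense value was the higher and the sense value the lower with hMOF siRNA, with ratios of 0.47 and 1.03 for SPEN-AS1 and of -0.52 and -0.46 for SPEN, and adjusted p values of 0.0834 and 0.0807 in limma. A second kept probe set of SPEN-AS1 gave ratios of 0.11 and 0.02, so the size depends on the probe set.

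SCAMP1-AS1, whose 75-base stretch is printed above, is paired with SCAMP1, a membrane protein of recycling vesicles. SCAMP1-AS1 read 144 and 189 on the A549 arrays and 263 and 603 on the H1299 arrays, ratios of 0.34 and 1.11. SCAMP1 read 2067 and 1674 on the A549 arrays and 2020 and 1554 on the H1299 arrays, ratios of -0.30 and -0.37. The arrays of the lines overlapped for SCAMP1 and not for its antisense RNA. PXN-AS1 starts inside PXN, which encodes the focal adhesion adaptor paxillin. PXN-AS1 read 195 and 270 on the A549 arrays and 339 and 724 on the H1299 arrays, ratios of 0.41 and 1.03, while PXN gave ratios of -0.41 and -0.77. The adjusted p values in limma were 0.127 for SCAMP1-AS1, 0.0974 for PXN-AS1 and 0.0863 for PXN.

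GAS6-AS1 and MAPT-AS1 went in opposite directions in the lines. GAS6-AS1, named for a secreted ligand of the TAM receptor kinases, read 123 and 303 on the A549 arrays and 34.4 and 19.8 on the H1299 arrays. Its A549 arrays are the higher pair, and its H1299 arrays lie well under the signal minimum. A second probe set, below the minimum, read 53.6 and 51.2 in A549. MAPT-AS1, named for the gene of the microtubule protein tau, read 109 and 122 on the A549 arrays and 293 and 105 on the H1299 arrays. Only the H1299 scramble array stands apart, and a second probe set below the minimum read 65.5 and 72.7 in H1299.

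**Figure D2:**
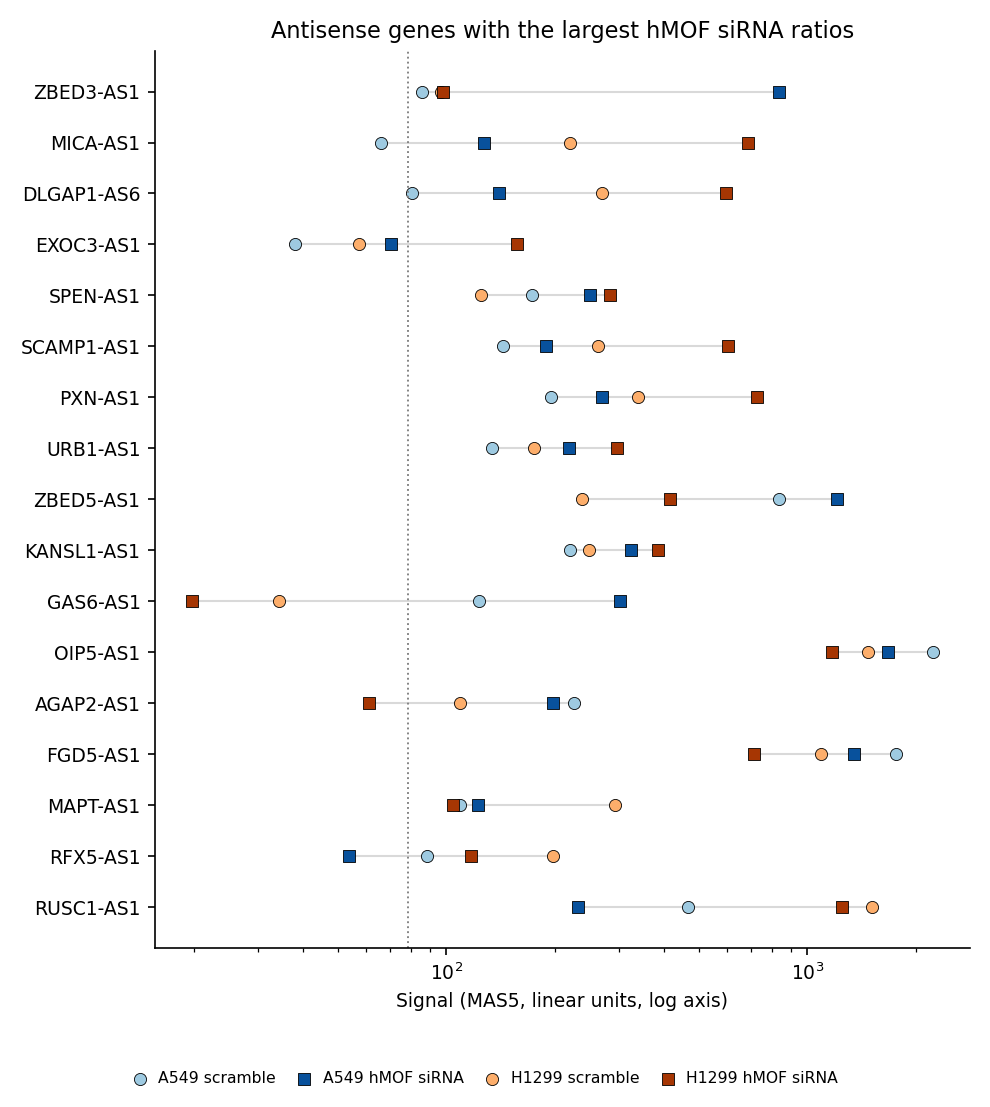
Deposited MAS5 signal (log axis) of 17 antisense genes on each of the 4 arrays, circles for scramble and squares for hMOF siRNA, blue for A549 and orange for H1299, ordered by the mean log2 ratio. The dotted line is the signal minimum of 78.1; the square lies to the right of the circle in both lines for the genes from ZBED3-AS1 to KANSL1-AS1 and to the left in both for OIP5-AS1, AGAP2-AS1, FGD5-AS1, RFX5-AS1 and RUSC1-AS1.

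At a smaller size, a log2 ratio of 0.5 or more in both lines, 7 members were higher and 1 was lower, against 2.4% and 4.53% of all genes. The 7 were MICA-AS1, DLGAP1-AS6, EXOC3-AS1, ERCC6L2-AS1, URB1-AS1, ZBED5-AS1 and KANSL1-AS1. URB1-AS1, whose 120-base stretch from URB1, a ribosome assembly gene, is printed above, read 134 and 219 on the A549 arrays and 175 and 297 on the H1299 arrays. Its ratios of 0.61 and 0.68 were close to each other, and both hMOF siRNA arrays lay above both scramble arrays. Its probe set has the suffix _x_at, which marks probes shared with other sequences. URB1 gave ratios of -0.19 and 0.04.

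ZBED5-AS1 read 834 and 1205 on the A549 arrays and 237 and 416 on the H1299 arrays, ratios of 0.52 and 0.74 and an adjusted p of 0.0649 in limma. Its sense gene ZBED5, which encodes a zinc finger protein derived from a transposase, read 3371 and 2765 on the A549 arrays and 1065 and 971 on the H1299 arrays. The antisense values were the higher with hMOF siRNA and the sense values the lower, in both lines. KANSL1-AS1 is named for KANSL1, the scaffold of the NSL complex in which hMOF works. It read 220 and 324 on the A549 arrays and 249 and 386 on the H1299 arrays, ratios of 0.50 and 0.58 and an adjusted p of 0.0699 in limma. Both hMOF siRNA arrays lay above both scramble arrays, while KANSL1 gave ratios of 0.13 and -0.13. ERCC6L2-AS1 read 102 and 159 on the A549 arrays and 195 and 356 on the H1299 arrays, and its sense gene, a DNA repair helicase gene, gave ratios of -0.12 and 0.06.

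GABPB1-AS1, singled out after its values were seen, starts inside GABPB1, the gene of a subunit of an ETS-family transcription factor. All 5 of its kept probe sets gave the higher value with hMOF siRNA in both lines, with ratios from 0.34 to 0.79 in A549 and from 0.39 to 1.01 in H1299. The brightest of them read 478 and 612 on the A549 arrays and 317 and 462 on the H1299 arrays and had an adjusted p of 0.114 in limma, and the mean of the 5 had one of 0.0456. GABPB1 read 190 and 279, and 293 and 418, so that it was the higher in both lines as well.

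The members with the lowest mean ratios were RUSC1-AS1, RFX5-AS1, MAPT-AS1, FGD5-AS1 and AGAP2-AS1. RUSC1-AS1 read 466 and 232 on the A549 arrays and 1509 and 1249 on the H1299 arrays. Its ratios were -0.93 and -0.27, and its second kept probe set gave -0.54 and -0.21. RFX5-AS1, head to head with the gene of a regulator of MHC class II transcription, read 88.6 and 53.8 on the A549 arrays and 198 and 117 on the H1299 arrays. It was the only member lower by 0.5 or more in both lines, with ratios of -0.51 and -0.64, an adjusted p of 0.0662 in limma, and RFX5 ratios of -0.82 and -0.38. FGD5-AS1 read 1760 and 1348 on the A549 arrays and 1090 and 713 on the H1299 arrays, and AGAP2-AS1 read 225 and 197, and 109 and 60.9. Of OIP5-AS1, all 3 kept probe sets had ratios from -0.44 to -0.30 in A549, and 2 of the 3 were below 0 in H1299, where the third was at 0.02.

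Agreement between probe sets limits these ratios. Of 32 members with 2 or more kept probe sets, 22 had the same sign of the mean ratio on the brightest and the second brightest, with a median absolute difference of 0.10 and a largest of 1.08. That largest difference belonged to NIFK-AS1, whose probe sets gave ratios of 0.45 and 0.78, and of -0.46 and -0.48.

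The sense genes were measured for 189 members, 188 distinct genes, while 35 sense genes were below the minimum and 20 had no single-gene probe set. Of the 188, limma gave 2 higher and 7 lower with hMOF siRNA, against 1.16% and 2.41% of all genes. Since 0 of the 244 members passed the test, none of the 9 genes' antisense partners did, which says nothing particular about these pairs. Without the term for line, limma called 0 of the 12830 genes, and EPB41L4A, PAXIP1 and MSRB3 also lost the call under other settings, at adjusted p values up to 0.0573, 0.0525 and 0.0516.

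DICER1, the nuclease that makes microRNAs, fell from 1124 to 542 in A549 and from 1534 to 660 in H1299, by 1.10 ± 0.11 on the log2 scale (SE, adjusted p = 0.0314 in limma). DICER1-AS1, head to head with it, read 109 and 116 on the A549 arrays and 101 and 134 on the H1299 arrays. TRAM2, a gene of the endoplasmic reticulum translocon, fell from 1876 to 848 and from 1639 to 698, while TRAM2-AS1 read 136 and 147, and 218 and 231. Both pairs have the sense gene lower on both hMOF siRNA arrays and the antisense RNA slightly higher. EPB41L4A fell from 955 to 460 in A549 and from 691 to 174 in H1299, and EPB41L4A-AS1 read 886 and 984, and 2110 and 1768. The antisense ratios were 0.15 and -0.25, against -1.01 and -1.83 for EPB41L4A.

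ID2, an inhibitor of basic helix-loop-helix transcription factors, PAXIP1, a DNA damage response gene, and RGMB, a co-receptor for bone morphogenetic proteins, also fell. ID2 went from 3009 to 1623 and from 2701 to 1558, and ID2-AS1 read 98.1 and 86.5, and 111 and 78.1. The mean log2 ratios were -0.83 for ID2, -0.82 for PAXIP1 and -0.81 for RGMB, with adjusted p values from 0.0376 to 0.0457 in limma. With kept probe sets averaged, RGMB had a mean ratio of -0.18 and lost the call, at an adjusted p of 0.505 in limma. MSRB3, a methionine sulfoxide reductase gene, rose from 477 to 817 and from 495 to 903. MSRB3-AS1 read 91.2 and 109, and 66.6 and 115. PPP1R14B, the gene of a phosphatase inhibitor, rose from 644 to 1211 and from 633 to 1621, and PPP1R14B-AS1 stayed between 75.1 and 80.0 on the 4 arrays. The values of PPP1R14B rest on the _x_at type of probe set, and the gene drops out when that type is left out.

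Across the 189 pairs the siRNA ratios, as means of both lines, had Pearson's r of -0.005 and Spearman's rho of 0.015. Both were above 0 in 54 pairs and both below 0 in 37, the antisense RNA was above 0 and the sense gene below in 76, and the reverse held in 22. Among 67 head-to-head pairs r was -0.03, and among 32 pairs with the antisense start inside the sense gene it was 0.14. The pairs share the same 4 arrays and are not independent, so these are descriptions.

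**Figure D3:**
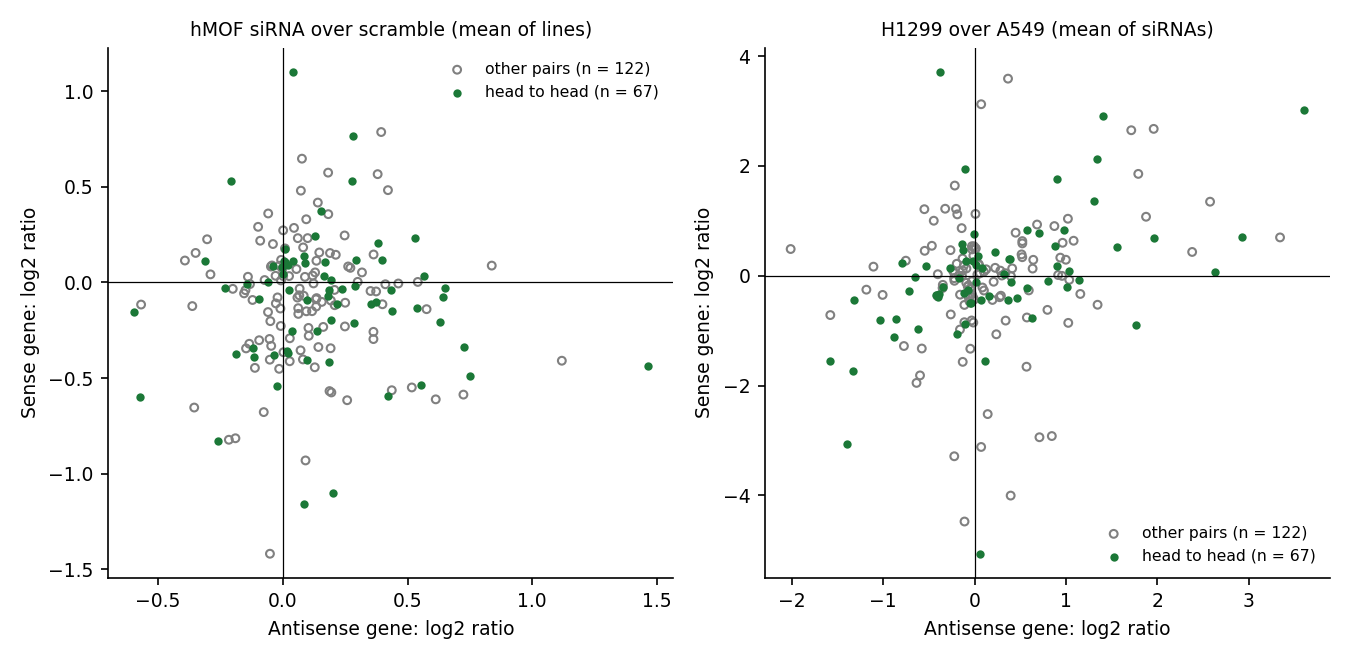
Each point is an antisense and sense pair with both genes measured, placed by the log2 ratio of the antisense gene (x axis) and of the sense gene (y axis): hMOF siRNA over scramble as the mean of the lines on the left, H1299 over A549 as the mean of the siRNAs on the right. Filled points are the 67 head-to-head pairs and open points the 122 others; the left cloud has r of -0.005 and the right one 0.32 over all 189 pairs.

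The comparison of the lines asks where these RNAs differ between 2 cancers of the same organ. H1299 was compared with A549 with siRNA as a block, so that the siRNAs stand in for repeats. Of the 244 members, 77 were higher and 40 lower in H1299 in limma, against 25.1% and 27.3% of all genes, or 52.4% in either direction. At 4-fold or more, 10 were higher and 2 lower, against 2.38% and 4.81%. The filter bears on this: 46 members had an A549 mean under the signal minimum and so passed only through H1299, and 35 of them were among the 77. In the same way 20 passed only through A549, and 14 of them were among the 40. Among the 178 members at or above the minimum in both lines, 42 were higher and 26 lower in H1299. The calls among all genes at or above the minimum in both lines were not counted. The shares of all genes given above also take in genes under it in either line. Whether the 178 members differ from other genes held to the same limit was therefore not tested. Fewer transcribing cells and less RNA per cell cannot be told apart in bulk samples.

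ZNF667-AS1 stood furthest apart on the scale used. It read 11.5 and 10.9 on the A549 arrays and 450 and 473 on the H1299 arrays, so it passed the minimum only through H1299, and its A549 signals lie under the offset. The size of its log2 difference is therefore set by the offset: it was 3.61 with the offset of 29.06, 5.37 with none and 2.94 with 56.45. The zinc finger gene ZNF667, 529 bases away and head to head, read 11.4 and 10.7 on the A549 arrays and 272 and 318 on the H1299 arrays, a difference of 3.01 that the offset sets in the same way. Both genes of the pair were near the bottom of the scale on both A549 arrays.

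PAX8-AS1 lies within PAX8, a paired-box transcription factor of thyroid and kidney development. It read 17.5 and 23.6 on the A549 arrays and 566 and 395 on the H1299 arrays, and a second kept probe set read 29.9 and 39.3, and 506 and 386. PAX8 itself read 249 and 244, and 432 and 405. PAX8-AS1 also passed only through H1299, with A549 signals under the offset on its brightest probe set, and its log2 difference was 3.34 with the offset used, 4.54 with none and 2.79 with 56.45. That of PAX8, which was above the minimum on all 4 arrays, was 0.70. DLGAP1-AS2 read 73.3 and 94.5 on the A549 arrays and 1051 and 624 on the H1299 arrays, a difference of 2.90 with an adjusted p of 0.0011 in limma.

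PNISR-AS1, head to head with a gene of a nuclear speckle protein, read 33.3 and 42.6 on the A549 arrays and 373 and 613 on the H1299 arrays. It too passed the signal minimum only through H1299. PNISR read 899 and 697, and 1284 and 1340, so the differences were 2.93 for the antisense RNA and 0.71 for the sense gene. ZNF232-AS1 read 260 and 337 on the A549 arrays and 1543 and 2548 on the H1299 arrays, a difference of 2.63. ZNF232, whose start is 57 bases away, read 572 and 536, and 477 and 715, and its arrays overlapped between the lines, with an adjusted p of 0.764 in limma.

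Transcripts named for developmental regulators differed in both directions. HOXB-AS1 read 39.7 and 41.8 on the A549 arrays and 340 and 298 on the H1299 arrays, and HOXD-AS2 read 52.7 and 56.9, and 335 and 304. They come from the HOX clusters, which specify position along the body axis, and have no single sense gene. Of the 2 other members from HOX clusters, HOXA-AS2 was higher in A549, at 168 and 140 against 112 and 98.7, and HOXA-AS3 did not pass the test. SOX9-AS1 read 20.9 and 20.6 on the A549 arrays and 114 and 158 on the H1299 arrays, while SOX9, a transcription factor of cartilage and epithelial progenitors, read 289 and 250, and 2196 and 1543. GNAS-AS1, from an imprinted locus, read 21.9 and 12.7, and 221 and 202. HOXB-AS1, HOXD-AS2, SOX9-AS1 and GNAS-AS1 were under the signal minimum on both A549 arrays and so passed only through H1299. By classes of sense gene drawn up after the values were seen, 8 of 20 members named for zinc finger genes were higher in H1299 and 1 in A549. Of 21 named for other developmental transcription factors, 6 were higher in H1299 and 2 in A549. Over all 244 members these shares were 31.6% and 16.4%, and over all genes 25.1% and 27.3%. Members that passed only through 1 line were not counted apart within the classes, and nothing particular to either class was tested.

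In the other direction, DHRS4-AS1, head to head with a gene of a retinoid-metabolising reductase, read 271 and 477 on the A549 arrays and 41.8 and 54.1 on the H1299 arrays. The difference was -2.34 ± 0.16 (SE), with an adjusted p of 0.00056 in limma. Both its H1299 signals lay under the signal minimum, so DHRS4-AS1 passed only through A549. A second kept probe set of DHRS4-AS1 read 88.9 and 98.1 against 98.9 and 91.1, so that the lines overlap on it, and the mean of both probe sets gave -1.16. GAS6-AS1 had a difference of -2.01, which was -1.26 between the scramble arrays and -2.76 between the hMOF siRNA arrays, with 1 H1299 signal under the offset, while GAS6 was higher in H1299, at 426 and 423 against 304 and 285. PRR34-AS1 read 1615 and 1557 on the A549 arrays and 408 and 386 on the H1299 arrays, and CLN8-AS1 read 534 and 581, and 162 and 172. For these 4 genes, read from the brightest probe set, both A549 arrays stood above both H1299 arrays. ZBED5-AS1 and ZBED5 were lower together in H1299, with differences of -1.58 and -1.56. HHIP-AS1, whose 136-base stretch is printed above, read 222 and 231 on the A549 arrays and 83.1 and 62.9 on the H1299 arrays. HHIP, which encodes an antagonist of hedgehog ligands, read 248 and 177, and 49.2 and 36.4, and the differences were -1.33 and -1.74. GAS6-AS1 and HHIP-AS1 likewise had H1299 means under the signal minimum and passed only through A549.

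**Figure D4:**
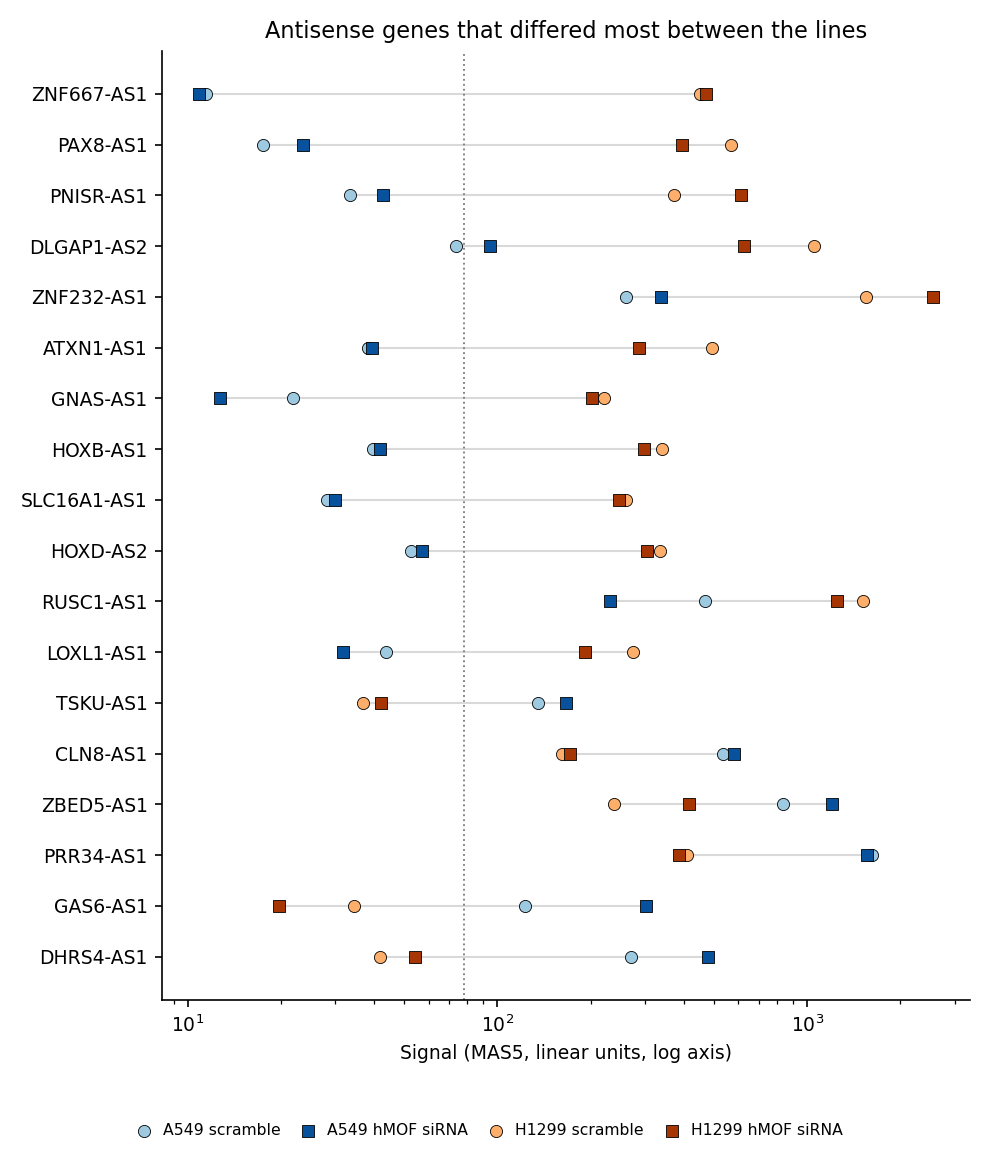
Deposited MAS5 signal (log axis) of the 12 antisense genes with the highest and the 6 with the lowest mean log2 difference of H1299 over A549, on each of the 4 arrays, circles for scramble and squares for hMOF siRNA. The H1299 arrays (orange) and the A549 arrays (blue) do not overlap for any of the 18 genes, which were picked for this difference. Over all genes, 32.7% had both H1299 arrays above both A549 arrays and 37.6% the reverse. The dotted line is the signal minimum of 78.1, which several genes pass in 1 line only.

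Between the lines, 116 of the 189 antisense and sense pairs differed in the same direction. The differences of the 189 pairs had Pearson's r of 0.32 and Spearman's rho of 0.29. In the 67 head-to-head pairs r was 0.46 and rho 0.49, in the 32 with the antisense start inside the sense gene 0.26 and 0.05, and in the 26 beyond its far end 0.21 and 0.31. Both genes were called in 57 pairs, 41 of them in the same direction, where 52.4% of all genes were called between the lines. The called members include some that passed the signal minimum only through the line where they are high. Over all members these were 35 of the 77 called higher in H1299 and 14 of the 40 called lower. Their part in the pair counts was not counted apart. Pairs with members that passed only through the line where they are high were not left out of r and rho either. How far the signal minimum bears on these correlations, or on their order among arrangements, was not tested. Head to head, both were called in 24 pairs, 20 of them in the same direction, against 5 of 10 inside the sense gene and 6 of 8 beyond its far end. These counts and correlations describe the same 4 arrays, and the difference between arrangements was not tested.

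Pairs that were higher together in H1299 included ELOVL2-AS1 with the fatty acid elongase gene ELOVL2, at 1.34 and 2.12. GATA6-AS1 and the endoderm regulator GATA6 differed by 0.90 and 1.77, and ZEB1-AS1 and ZEB1, a repressor of epithelial genes, by 0.70 and 0.78. TSKU-AS1 and TSKU were lower together, at -1.39 and -3.07. Of the 24 head-to-head pairs with both genes called, the 4 that went in opposite directions were those of URB1, IDH1, CARD8 and LIN28B. CARD8-AS1 read 41.8 and 53.9 on the A549 arrays and 229 and 237 on the H1299 arrays, so it passed the signal minimum only through H1299. The inflammasome gene CARD8 read 549.1 and 519, and 323 and 233. LIN28B-AS1 differed by -0.38, but LIN28B, which blocks let-7 microRNA maturation, was higher in H1299 by 3.71. IDH1-AS1 was higher in H1299 by 0.62 and the isocitrate dehydrogenase gene IDH1 lower, at -0.76.

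Other noncoding genes were read the same way for comparison. The 151 measured LINC genes, long intergenic RNAs, had median siRNA ratios of 0.08 and 0.07. In limma 0 of them had an adjusted p under 0.05, against 3.57% of all genes. At an unadjusted p under 0.05, limma gave 22 of them (14.6%), against 23.8% of all genes. The 64 genes with the suffix -DT, divergent transcripts that share a promoter with a coding gene, had medians of 0.09 and 0.15. Of these DPH5-DT, YTHDF3-DT and C2orf74-DT rose, with mean log2 ratios of 0.82, 0.74 and 0.68 and adjusted p values of 0.0393, 0.0447 and 0.0495 in limma. They were the 3 of 64 called, against 1.16% of all genes called higher. The difference between these families and the antisense genes was not tested. Of 19 measured genes of the nuclear exosome and its cofactors, which degrade many antisense RNAs, 0 passed in limma, against 3.57% of all genes. At an unadjusted p under 0.05, limma gave 6 of the 19, against 23.8% of all genes. The medians of the 19 genes were -0.01 in each line. RBM7, which guides the exosome to noncoding RNA, read 733 and 1379 on the A549 arrays and 472 and 742 on the H1299 arrays, with an adjusted p of 0.051. Of 16 measured genes for proteins that bind or process double-stranded RNA, DICER1 and AGO4 fell, against 2.41% of all genes, and 14 did not pass in limma. In this list 8 genes were at an unadjusted p under 0.05 in limma, against 23.8% of all genes. The medians of the list were -0.18 and -0.33. AGO4 read 268 and 161, and 565 and 303.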

How the data were processed

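RNA of 2 lung cancer cell lines, each with scramble or hMOF siRNA, was read on 1 array per combination, 4 in all. The authors deposited a linear signal intensity for every probe set, computed with MAS5 according to the submitters' processing notes. Its version and scaling and the genome build were not stated there, and no further normalization was applied. Dim signals vary most, and the number of arrays limits the precision.

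Probe sets were named through the platform annotation: 41097 had 1 gene, 1801 several and 11721 none, with 62 controls left out. Of the single-gene probe sets, 54 lacked a RefSeq identifier and kept the annotation's symbol. Probe sets with a mean signal of at least 78.1, the 50th percentile, were kept, and the brightest stood for its gene. Ratios are on log2(signal + 29.06), the offset being the 20th percentile of signals, which shrinks ratios of dim genes. A limma model (version 3.58.1, R 4.3.3, lmFit then eBayes) had terms for line and siRNA, 1 residual and 3.74 prior degrees of freedom, with Benjamini-Hochberg adjustment over 12830 genes and a threshold of 0.05. The labels do not tell whether cultures were repeated, so p values cover only the spread among these arrays. The script was tested on simulated data.

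Named genes were KAT8, members past 2-fold in either line, the 5 highest and lowest mean siRNA ratios, the 5 brightest, the 5 largest line differences each way, 3 on each side of the minimum, sense genes, and called genes of other lists. Further genes were chosen after their values were seen: URB1-AS1, ZBED5-AS1, KANSL1-AS1, ERCC6L2-AS1, GABPB1-AS1, NIFK-AS1, those of the developmental classes and the head-to-head pairs named. The members, lists and tests were chosen with earlier results of these data known. Starts and sequences come from RefSeq promoter windows (GRCh38.p14, 250 bases before to 50 after each start), taking the closest starts of a pair. Figures were drawn with matplotlib 3.10.9.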

Additional observations from a re-analysis of the deposited data

Results flagged for a closer look

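GAS6-AS1 and MAPT-AS1 passed 2-fold in 1 line and went the opposite way in the other. For GAS6-AS1 the log2 ratio of H1299 minus that of A549 was -1.50, from ratios of 1.13 in A549 and -0.38 in H1299. For MAPT-AS1 it was -1.40, from 0.13 in A549 and -1.27 in H1299. With 1 array per arm these differences were not tested. The second probe set of GAS6-AS1 gave ratios of -0.04 and 0.00, and that of MAPT-AS1 gave -0.09 and 0.11, both below the signal minimum.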

How the results depend on the processing

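The count of members called higher with hMOF siRNA went from 0 to 4 with no offset, to 2 with the minimum at the 70th percentile, to 5 with quantile normalization, to 3 with kept probe sets averaged, and, in settings added after seeing the data, to 2 with arrays centred on the median of the kept genes and to 4 with a loess on signal removed. The count called lower went from 0 to 1 with no offset. URB1-AS1 and DLGAP1-AS6 were called in each of these 6 settings. Of the sense genes, 2 were called higher against 1 with averaged probe sets, 1 without _x_at probe sets and 0 with no block for cell line, and 7 were called lower against 0 with no block. RGMB had a mean ratio of -0.18 and an adjusted p of 0.505 in limma with averaged probe sets. With no block, 0 of the 12830 genes were called. Members 2-fold higher were 2 in H1299 with the offset at the 40th percentile and 1 in A549 with the 70th-percentile minimum. Members 2-fold lower were 1 in A549 with no offset and 0 in H1299 with the 70th-percentile minimum. That minimum leaves 70 members, and the line calls were then 33 higher and 13 lower in H1299. With no block for siRNA, 53 of the 244 members were higher and 25 lower, against 77 and 40 with it. Where no fewer genes or terms account for a shift, the cause was not tested. Leaving out an array leaves no spread to test. The fit already pairs the arrays of a line through its line term, and the labels carry no replicate numbers to pair by.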
